A study of Mus musculus with 12 samples.

Results

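Xenobiotic-sensing receptors of the liver, their dimer partners, their feedback genes and the electron carriers that serve cytochrome P450 enzymes were followed across 12 mouse livers. The group was chosen by gene symbol from a list of 10 genes and all 10 were found among the 45777 genes of the table. *Nr1i2* encodes the pregnane X receptor (PXR) and *Nr1i3* the constitutive androstane receptor (CAR), nuclear receptors that bind DNA as heterodimers with the retinoid X receptor alpha, encoded by *Rxra*. *Ahr* encodes the aryl hydrocarbon receptor (AHR), which waits in the cytosol with heat shock protein chaperones and, once a ligand is bound, enters the nucleus and pairs with ARNT. *Ahrr* and *Tiparp* encode a repressor and an ADP-ribosyltransferase that are induced through AHR and act back on it. *Nr3c1* encodes the glucocorticoid receptor, *Por* the reductase that passes electrons from NADPH to microsomal P450 enzymes, and *Cyb5a* the cytochrome b5 that can hand some P450 enzymes an electron. In hepatocytes, CAR and PXR are known as inducers of drug-metabolizing enzymes, and P450 enzymes convert acetaminophen into its reactive metabolite.

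RNA was sequenced from whole livers of male C57BL/6 mice, which the labels give as 10 to 12 weeks old. Wild-type (WT) mice and mice labelled as knockouts of *Gna12*, the gene for the G protein subunit Gα12, received either vehicle or acetaminophen (APAP), with 3 livers in each of the 4 groups. The mice were fasted overnight, APAP was injected into the peritoneum at 300 mg/kg, livers were taken 6 h later, and the WT mice were littermates of the knockouts. The KO genotype is given as Gα12-/-, and the labels name no cell type to which the deletion was confined. Whole liver holds several cell types, so that fewer cells of a type and less RNA per cell cannot be told apart.

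Each library held between 49737950 and 69566079 counts. *Gna12* had 2472 to 4003 counts in the livers labelled KO and 1193 to 4373 in the WT livers. The counts thus did not separate the labels, and the livers are named below by their labels only. The study checked the genotype by PCR of tail DNA and by qRT-PCR of *Gna12* in liver, without naming the mice sequenced here. In a principal component analysis of 500 genes with the highest variance, component 1 (56.1%) separated the treatments. On component 2 (10.1%) replicate 1 of the WT APAP group and replicate 2 of the WT vehicle group lay away from the livers of their groups. In WT APAP replicate 1, the summed level of 5 erythroid markers was 17361 CPM (counts scaled to a common library size, here after TMM scaling) against 253 to 749 CPM in the other 11 livers. The 6 neutrophil markers summed to 121 CPM in WT APAP replicate 1 and to 10.9 and 19.1 CPM in replicates 2 and 3. APAP livers labelled KO had 0.847 to 7.27 CPM. WT vehicle replicate 2 had 16.8 CPM, and the other vehicle livers lay between 1.10 and 2.37 CPM. The granulocyte enzyme gene *Mpo* had no count in any liver. Hepatocyte identity was clear in every liver, the 7 hepatocyte markers summing to between 68595 and 137429 CPM, and 0 of the 7 were called between treatments in edgeR (1 at an unadjusted p-value under 0.05). The part of these cell types in the results below was not tested.

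Promoter windows, running from 250 bases before to 50 bases after an annotated start site, came from RefSeq (GRCm38.p6). They are described for 7 of the 10 members. Any windows of *Nr3c1* and *Cyb5a* are not reported here, and no window was found for *Ahr*. The windows of *Tiparp* and *Ahrr* are shown because both are feedback genes of AHR, and that of *Nr1i3* because it was the receptor gene with the largest fall after APAP. Capitals mark the core GCGTG to which AHR and ARNT bind, read on either strand, so that CACGC is the core on the opposite strand.
Tiparp: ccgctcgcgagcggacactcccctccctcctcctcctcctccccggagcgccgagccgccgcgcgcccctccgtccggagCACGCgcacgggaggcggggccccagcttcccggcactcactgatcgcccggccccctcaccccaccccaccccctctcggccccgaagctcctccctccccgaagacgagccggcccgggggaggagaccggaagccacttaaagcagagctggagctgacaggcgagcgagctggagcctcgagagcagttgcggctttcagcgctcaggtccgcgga
Ahrr: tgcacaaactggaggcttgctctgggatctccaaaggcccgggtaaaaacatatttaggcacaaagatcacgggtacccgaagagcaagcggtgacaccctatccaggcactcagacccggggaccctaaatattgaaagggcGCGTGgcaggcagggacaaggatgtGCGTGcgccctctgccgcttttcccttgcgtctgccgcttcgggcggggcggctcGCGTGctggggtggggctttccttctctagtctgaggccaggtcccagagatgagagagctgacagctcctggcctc
Nr1i3: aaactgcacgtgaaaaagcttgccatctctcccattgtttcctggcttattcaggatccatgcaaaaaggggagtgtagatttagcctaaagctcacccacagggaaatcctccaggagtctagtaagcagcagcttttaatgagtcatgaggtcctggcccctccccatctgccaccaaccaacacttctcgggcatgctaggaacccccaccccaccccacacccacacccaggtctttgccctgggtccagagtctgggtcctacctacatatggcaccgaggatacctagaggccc
The *Tiparp* window lies on the plus strand at chr3:65528197-65528496, the *Ahrr* window on the minus strand at chr13:74292282-74292581 and the *Nr1i3* window on the plus strand at chr1:171213720-171214019. The core occurred 1 time in the *Tiparp* window, at position -170 from the start site, and 3 times in the *Ahrr* window, at -107, -82 and -27. Of all 32851 windows in the table, 32.4% held at least 1 core and 3.91% at least 3. The *Por* window also held 3 cores and the *Arnt* window 1, while the windows of *Nr1i3*, *Nr1i2* and *Rxra* held 0. The half-site AGGTCA, bound by many nuclear receptors, was found 2 times in 1 of the 2 *Rxra* windows and in 16.3% of all windows. Among the windows described for the 7 members, the glucocorticoid receptor half-site AGAACA was found 1 time, for *Nr1i2*, against 19.0% of all windows. The half-site AGTTCA was in none of the windows described for the 7 members and in 14.0% of all windows. These matches describe letters only.

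The first question was how the members changed with APAP when the genotype labels were pooled, with the label as a term of the model. In edgeR's quasi-likelihood test, 3 of the 10 members passed an adjusted p-value of 0.05, *Tiparp* being higher and *Nr1i3* and *Ahr* lower after APAP. Among all 16509 genes tested in this comparison, 25.4% passed, 14.0% being higher and 11.4% lower. At an unadjusted p-value under 0.05, 6 of the 10 members passed, as did 6132 of the 16509 genes. The median log2 fold change of the 10 members was -0.24, against 0.01 over all genes tested. On the CPM scale the 6 vehicle and 6 APAP livers did not overlap for 1 member, *Nr1i3*, where 12.5% of all genes did not overlap.

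**Figure D1:**
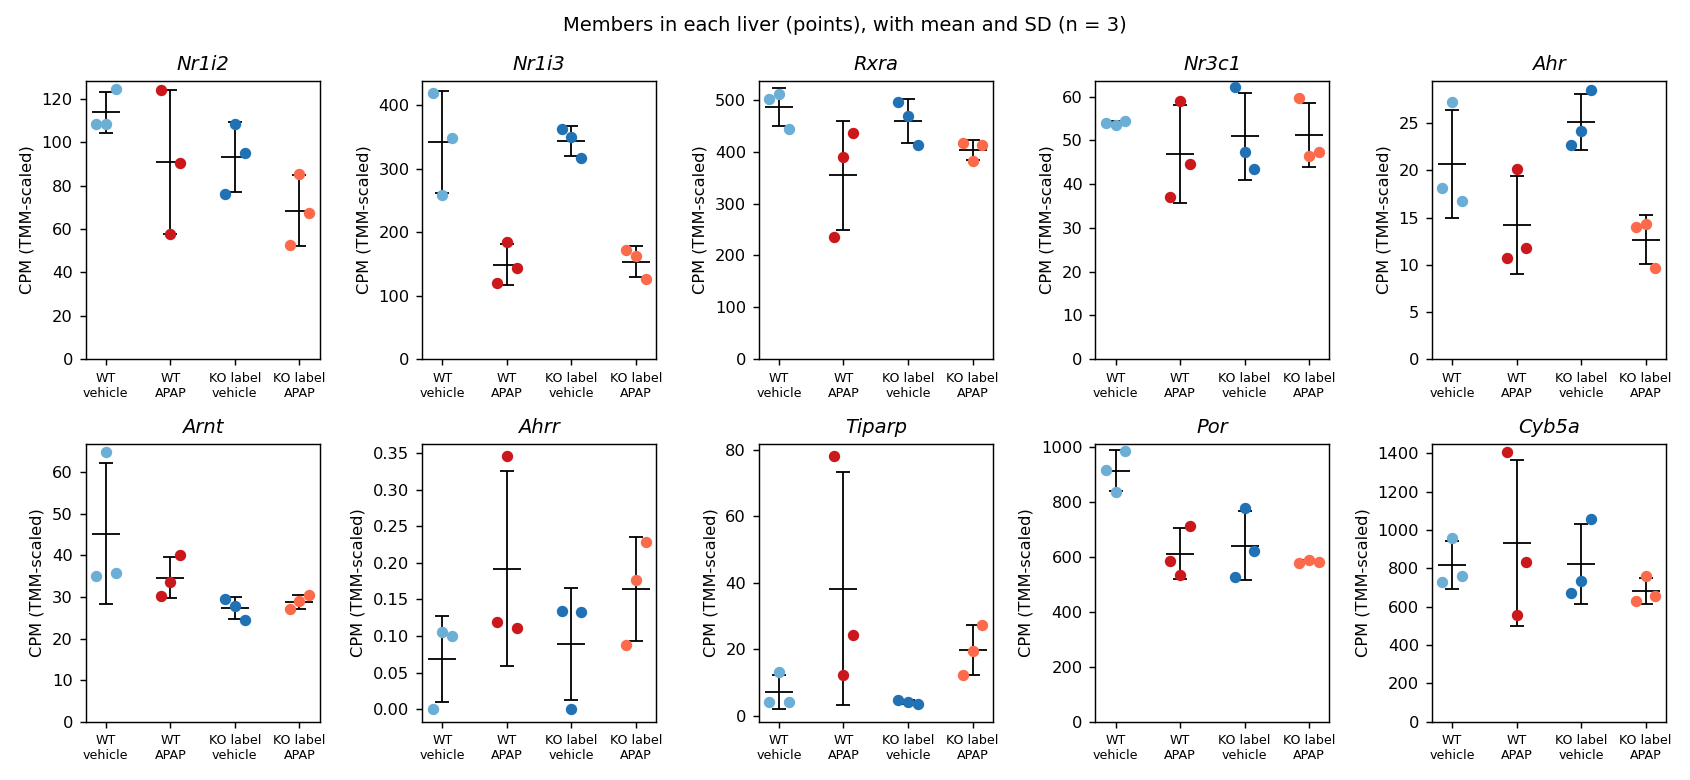
CPM of each member after TMM scaling (vertical axes, linear) in the 12 livers by group, points being livers and bars the mean with SD of 3 livers. *Nr1i3* lay between 119 and 184 CPM in the APAP livers, below all vehicle livers (259 to 420 CPM), and *Tiparp* reached 78.0 CPM in a single WT APAP liver.

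*Nr1i3* (gene ID 12355, chr1:171213934-171218845), which encodes CAR, fell after APAP over all livers and under the KO label. It stood at 420, 259 and 348 CPM in the WT vehicle livers and at 363, 350 and 317 CPM in the vehicle livers labelled KO. After APAP it stood at 119, 184 and 143 CPM in the WT livers and at 172, 162 and 126 CPM in the livers labelled KO. The lowest vehicle liver, WT vehicle replicate 2, was thus above the highest APAP liver. Over all 12 livers *Nr1i3* was 2.27-fold lower after APAP (95% interval 1.82 to 2.83), a log2 fold change of -1.18 with a standard error of 0.15 (adjusted p = 0.000147). It was called in each of 9 alternative fits and in each of 12 fits that left out 1 liver, with log2 fold changes of -1.25 to -1.07 over these fits. *Nr1i3* overlaps *Tomm40l* on the annotation, a gene with 467 to 1171 counts per liver against 6002 to 22369 for *Nr1i3*, and the sources used here do not give whether strand was used in counting. *Tomm40l* had a log2 fold change of 0.17 (adjusted p = 0.337).

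*Nr1i2* (gene ID 18171, chr16:38248349-38294849), which encodes PXR, had lower mean levels after APAP but did not pass the test. It stood at 108, 109 and 125 CPM in the WT vehicle livers and at 124, 57.9 and 90.4 CPM in the WT APAP livers. In the livers labelled KO it stood at 76.3, 108 and 95.1 CPM with vehicle and at 52.6, 85.4 and 67.6 CPM with APAP. On the CPM scale the treatments overlapped under both labels, and WT APAP replicate 1 lay among the vehicle livers. On the deposited TPM, which is scaled by transcript length, the WT groups were apart (65.2 to 77.7 with vehicle, 43.9 to 60.0 with APAP). On that scale WT APAP replicate 1 (49.9 TPM) lay below all vehicle livers (52.2 to 77.7 TPM). The pooled log2 fold change was -0.38 with a standard error of 0.18 (95% interval -0.77 to -0.0039, adjusted p = 0.131). Without WT APAP replicate 1 it was -0.51 (adjusted p = 0.0278), and without both livers that stood apart -0.52 (adjusted p = 0.0309).

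*Rxra* (gene ID 20181, chr2:27676445-27763319), the shared partner of CAR and PXR, did not pass the test. Its level was between 413 and 512 CPM (median 482 CPM) in the 6 vehicle livers and between 236 and 436 CPM (median 401 CPM) in the 6 APAP livers. The lowest value came from WT APAP replicate 1, and the remaining APAP livers began at 382 CPM. The pooled log2 fold change was -0.32 with a standard error of 0.14 (adjusted p = 0.125), and it was -0.20 (adjusted p = 0.133) without WT APAP replicate 1. *Nr3c1* (gene ID 14815, chr18:39410545-39519421), the glucocorticoid receptor gene, spanned 43.4 to 62.2 CPM (median 53.7 CPM) with vehicle and 37.1 to 59.6 CPM (median 46.9 CPM) with APAP. Its ranges overlapped widely, and the log2 fold change was -0.10 with a standard error of 0.13 (95% interval -0.38 to 0.19, adjusted p = 0.632).

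*Ahr* (gene ID 11622, chr12:35497979-35534989) also fell after APAP over all livers and under the KO label. It stood at 18.1, 27.3 and 16.7 CPM in the WT vehicle livers and at 10.7, 20.2 and 11.8 CPM in the WT APAP livers. In the livers labelled KO it went from 22.7, 24.2 and 28.5 CPM to 14.0, 14.3 and 9.66 CPM. The KO label groups did not overlap, while WT APAP replicate 2 lay above 2 of the WT vehicle livers. Over all 12 livers *Ahr* was 1.70-fold lower after APAP (95% interval 1.28 to 2.26), a log2 fold change of -0.76 with a standard error of 0.19 (adjusted p = 0.0108). It passed in each of the 9 alternative fits and in each of the 12 fits that left out 1 liver (adjusted p of 0.0011 to 0.0328 in the first and 0.00127 to 0.0295 in the second).

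*Arnt* (gene ID 11863, chr3:95434367-95497240), the dimer partner of AHR, showed no call. Its level was 24.4 to 64.8 CPM (median 32.4 CPM) with vehicle and 27.1 to 40.0 CPM (median 30.3 CPM) with APAP. The highest value was WT vehicle replicate 2, 1 of the livers that stood apart, and the next was 40.0 CPM. The pooled log2 fold change was -0.15 with a standard error of 0.16 (95% interval -0.50 to 0.20, adjusted p = 0.534), and it was 0.03 without that liver.

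*Tiparp* (gene ID 99929, chr3:65528447-65555518), whose promoter is shown above, rose more than any other member. It stood at 4.19, 13.2 and 4.29 CPM in the WT vehicle livers and at 4.67, 4.07 and 3.69 CPM in the vehicle livers labelled KO. After APAP it stood at 78.0, 12.3 and 24.3 CPM in the WT livers and at 12.4, 19.4 and 27.4 CPM in the livers labelled KO. On the CPM scale the extreme values were those of the livers that stood apart. WT vehicle replicate 2 lay within the APAP range and WT APAP replicate 1 was the highest of all. On the TPM scale the treatments did not overlap (1.18 to 4.64 with vehicle, 5.53 to 18.7 with APAP). Over all 12 livers *Tiparp* was 5.01-fold higher after APAP (95% interval 2.62 to 9.57), a log2 fold change of 2.33 with a standard error of 0.43 (adjusted p = 0.00194). It was called in each of 9 alternative fits and in each of 12 fits that left out 1 liver, and the log2 fold changes over the 12 ran from 1.85 to 2.65. With limma on log2(TPM + 1) it was 1.67 (adjusted p = 0.00656), and without both livers that stood apart 2.20 in edgeR (adjusted p = 7.6e-05). *Tiparp* overlaps *4931440P22Rik* on the annotation, for which at most 16 counts were recorded in a liver.

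*Ahrr* (gene ID 11624, chr13:74211118-74292331), whose promoter held 3 AHR cores, was hardly detected. It had 0, 5 and 5 counts in the WT vehicle livers and 8, 0 and 6 counts in the vehicle livers labelled KO. After APAP it had 6, 26 and 7 counts in the WT livers and 5, 11 and 16 in the livers labelled KO. At these counts no difference was detectable, the pooled log2 fold change being 1.18 with a 95% interval of -0.32 to 2.68 (adjusted p = 0.242). With every liver kept, *Ahrr* was tested in the pooled comparison, in the interaction and between the labels after APAP, and it fell below the filter on low counts in the other 3 comparisons, where 9 members were tested.

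*Por* (gene ID 18984, chr5:135670040-135735326) was among the most abundant members and fell short of the threshold. It stood at 918, 839 and 988 CPM in the WT vehicle livers and at 584, 535 and 715 CPM in the WT APAP livers. In the livers labelled KO it stood at 527, 778 and 623 CPM with vehicle and at 579, 591 and 581 CPM with APAP. The WT groups did not overlap, whereas the APAP livers labelled KO lay inside the range of their vehicle livers. Over all 12 livers the log2 fold change was -0.36 with a standard error of 0.14 (95% interval -0.65 to -0.07, adjusted p = 0.0696). It was called with DESeq2 (adjusted p = 0.0335) and without KO vehicle replicate 1 (adjusted p = 0.0299).

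*Cyb5a* (gene ID 109672, chr18:84851338-84879871) had the highest level of all members per length and did not move with APAP beyond its spread. Its level was 671 to 1059 CPM (median 747 CPM) with vehicle and 556 to 1404 CPM (median 709 CPM) with APAP. Both the lowest and the highest CPM were those of WT APAP livers, the highest being replicate 1. On the TPM scale replicate 1 (1678) lay within the vehicle livers (1388 to 1695). The pooled log2 fold change was -0.04 with a standard error of 0.21 (95% interval -0.50 to 0.42, adjusted p = 0.918).

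**Figure D2:**
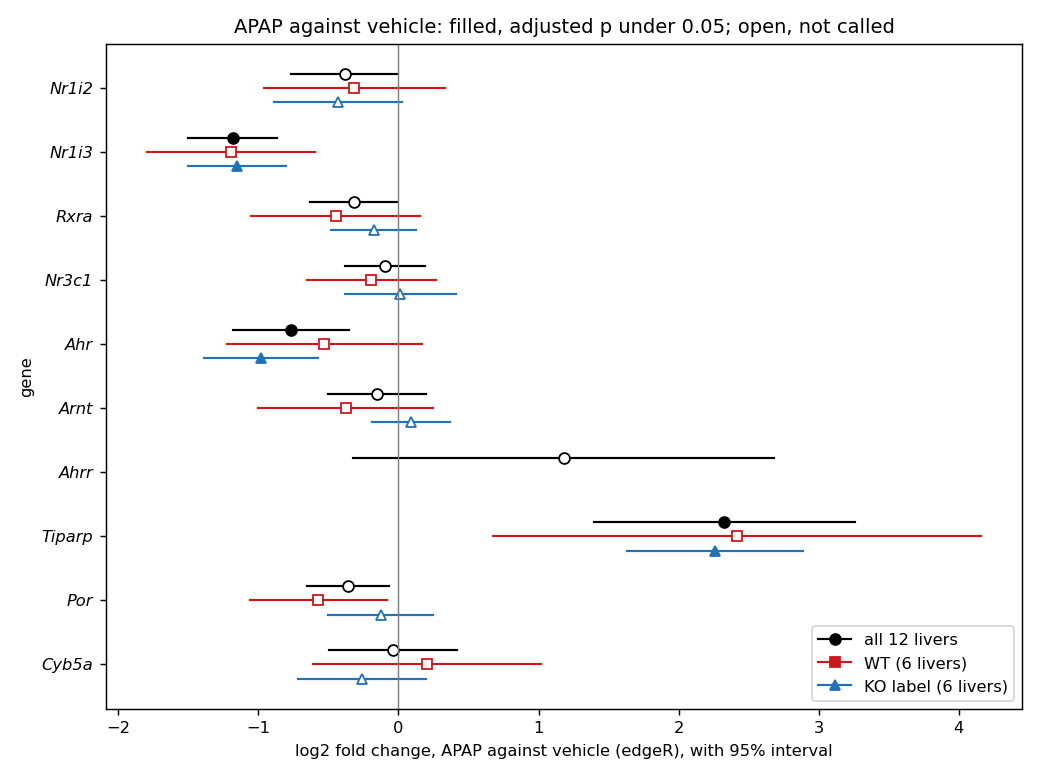
Log2 fold change of APAP against vehicle from edgeR (horizontal axis) for each member, with 95% intervals, over all 12 livers, the 6 WT livers and the 6 livers labelled KO. *Nr1i3*, *Ahr* and *Tiparp* are filled (adjusted p under 0.05) over all livers and under the KO label, and no member is filled in WT livers, where *Nr1i3* and *Tiparp* have similar estimates and wider intervals.

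The next question was how APAP acted within each genotype label. In WT livers, 0 of 9 members passed in edgeR's quasi-likelihood test at an adjusted p-value of 0.05, where 2.05% of 15693 genes passed. These 322 genes became 41 without WT vehicle replicate 3, 43 without WT vehicle replicate 1 and 68 without WT APAP replicate 3, with 0 members called in each. At an unadjusted p-value under 0.05, 3 of the 9 passed, as did 2817 of the 15693 genes. DESeq2 called the same 3, *Nr1i3*, *Tiparp* and *Por*, among 1413 genes. *Nr1i3* was 2.29-fold lower (95% interval 1.51 to 3.46, log2 fold change -1.19, adjusted p = 0.0634), *Tiparp* 5.33-fold higher (95% interval 1.60 to 17.8, adjusted p = 0.148) and *Por* 1.49-fold lower (95% interval 1.06 to 2.08, adjusted p = 0.207). *Nr1i3* and *Tiparp* passed when both livers that stood apart were left out (adjusted p = 0.0386 and 0.0393), where 631 genes passed. On the CPM scale the WT groups did not overlap for 3 members, *Nr1i3*, *Rxra* and *Por*, where 24.9% of all genes did not overlap. On the TPM scale those of *Rxra* overlapped (132 to 170 with vehicle, 46.4 to 143 with APAP).

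Under the KO label, 3 of 9 members passed, where 22.6% of 15665 genes passed, and they were *Nr1i3*, *Ahr* and *Tiparp*. *Nr1i3* was 2.22-fold lower (95% interval 1.74 to 2.84, log2 fold change -1.15, adjusted p = 0.00252). *Ahr* was 1.97-fold lower (95% interval 1.49 to 2.61, log2 fold change -0.98, adjusted p = 0.00703), while in WT livers its log2 fold change was -0.53 (95% interval -1.23 to 0.17, adjusted p = 0.399). *Tiparp* was 4.78-fold higher (95% interval 3.09 to 7.40, log2 fold change 2.26, adjusted p = 0.0017). The 3 livers of each group did not overlap for these 3 members, where 42.9% of all genes did not overlap. *Nr1i2* (log2 fold change -0.43, adjusted p = 0.154), *Rxra* (-0.18, adjusted p = 0.371) and *Por* (-0.13, adjusted p = 0.612) were not called.

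Whether the response to APAP differed between the labels was tested by the interaction term over 12 livers. It passed for 0 of the 10 members and for 0% of 16509 genes in edgeR, and DESeq2 called 9 genes, 0 of them members. At an unadjusted p-value under 0.05, 848 genes and 0 members passed. For *Nr1i3* the difference between the 2 log2 fold changes was 0.04 (95% interval -0.61 to 0.69), and for *Ahr* it was -0.45 (95% interval -1.27 to 0.36). For *Tiparp* it was -0.15 (95% interval -2.03 to 1.73), for *Por* 0.44 (95% interval -0.10 to 0.99) and for *Arnt* 0.46 (95% interval -0.21 to 1.14). Without WT vehicle replicate 2 the value of *Arnt* was 0.11. These intervals include differences as large as the responses themselves for *Ahr* and *Por*, and exclude, for *Nr1i3*, a difference as large as the fall in either label.

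The genotype labels were then compared within each treatment. In vehicle livers 0 of 9 members passed in edgeR, where 0.0262% of 15262 genes passed, and DESeq2 also called 0 members. At an unadjusted p-value under 0.05, 2 members passed, as did 1154 of the 15262 genes. The 2 members were *Arnt* and *Por*, both with lower levels under the KO label. *Arnt* had a log2 fold change of -0.73 (95% interval -1.30 to -0.16, adjusted p = 0.588), from 45.2 ± 17.0 CPM (SD, n = 3) in WT livers to 27.3 ± 2.65 CPM. *Por* had a log2 fold change of -0.51 (95% interval -0.94 to -0.08, adjusted p = 0.608), from 915 ± 74.6 CPM to 642 ± 127 CPM. Without WT vehicle replicate 2 the value of *Arnt* was -0.37 and that of *Por* -0.56. These 2 members were those whose vehicle groups did not overlap on the CPM scale, where 14.0% of all genes did not overlap. On the TPM scale the vehicle groups overlapped for both members. *Tiparp* had a log2 fold change of -0.80 (95% interval -1.84 to 0.23, adjusted p = 0.735), and -0.03 in the fit that left out WT vehicle replicate 2.

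After APAP, 0 of 10 members passed between the labels in edgeR, where 0.0309% of 16174 genes passed. At an unadjusted p-value under 0.05, 536 of these genes and 0 members passed, and 0 members passed in DESeq2. The groups overlapped for each of the 10 members, where 8.72% of all genes did not overlap. *Tiparp* stood at 38.2 ± 35.0 CPM in WT livers and at 19.7 ± 7.52 CPM in livers labelled KO (log2 fold change -0.98, 95% interval -2.41 to 0.45, adjusted p = 0.958). Without WT APAP replicate 1 this value turned to 0.11. *Arnt* (-0.28), *Nr1i2* (-0.42) and *Cyb5a* (-0.47) had log2 fold changes below 0 with intervals that included 0. Without WT APAP replicate 1, these were -0.11 for *Nr1i2* and -0.031 for *Cyb5a*. That liver had the highest CPM of both genes among the APAP livers, but not a high TPM of *Nr1i2* (49.9, the APAP livers spanning 42.2 to 63.3). Its *Cyb5a* was 1678 TPM, close to the 1673 TPM of KO APAP replicate 2.

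Levels were compared between genes on the TPM scale, which is corrected for transcript length. In vehicle livers the order of median TPM was *Cyb5a* (1546), *Por* (499), *Nr1i3* (333), *Rxra* (150), *Nr1i2* (70.0), *Arnt* (12.9), *Nr3c1* (12.2), *Ahr* (7.08), *Tiparp* (1.69) and *Ahrr* (0.0313). The ranges over 6 livers overlapped for the neighbours *Por* and *Nr1i3*, *Arnt* and *Nr3c1*, and *Ahr* and *Tiparp*, and were apart for the other neighbours. After APAP, *Nr1i3* (170) and *Rxra* (143) overlapped, as did *Rxra* and *Nr1i2* (50.7), the latter through the low *Rxra* value of WT APAP replicate 1. *Tiparp* (9.08) moved ahead of *Ahr* (4.15), with overlapping ranges of 5.53 to 18.7 and 1.94 to 6.85 TPM.

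**Figure D3:**
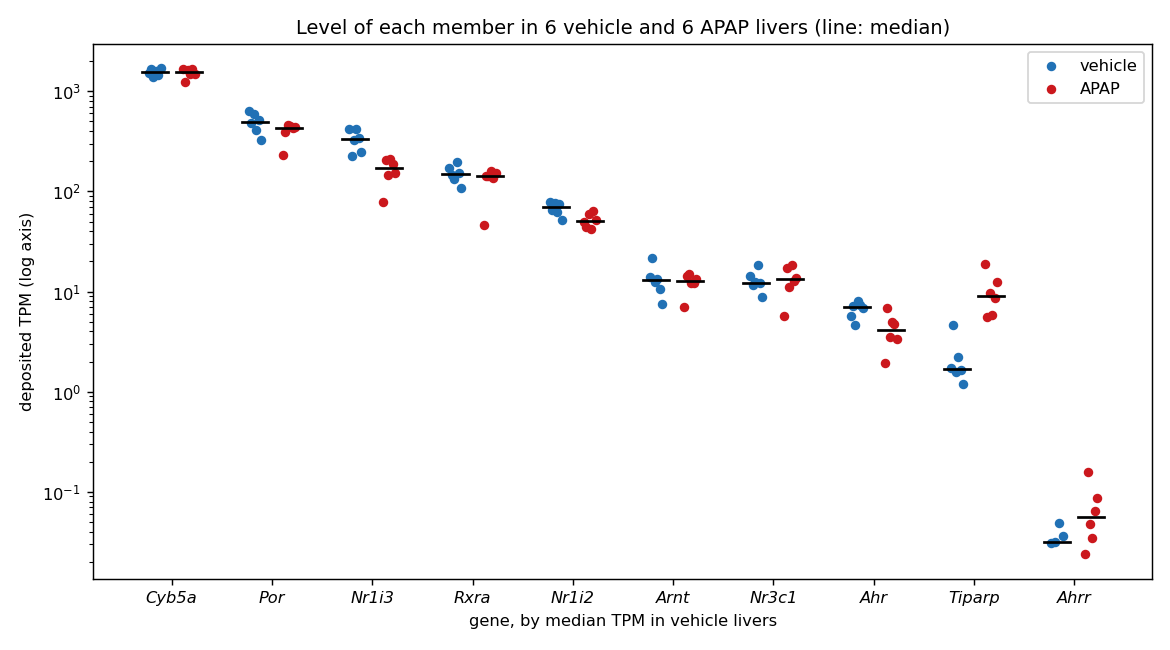
TPM as deposited (log axis) of the 10 members, ordered by median in vehicle livers, points being livers and lines medians of 6 vehicle or 6 APAP livers. The 2 vehicle livers with 0 TPM of *Ahrr* cannot be drawn on the log axis, and *Tiparp* is below *Ahr* with vehicle (1.69 against 7.08) and above it with APAP (9.08 against 4.15).

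Ratios of TPM within a liver are free of scaling between libraries, but they carry the length correction of TPM and can differ from ratios of CPM. The ratio of *Tiparp* to *Ahr* was 0.171 to 0.642 (median 0.289) in vehicle livers and 0.806 to 9.65 (median 2.26) in APAP livers. The treatments thus did not overlap, but as *Tiparp* was called higher and *Ahr* lower, this is not a separate result. The ratio of *Nr1i3* to its partner *Rxra* was 1.55 to 2.47 (median 2.26) with vehicle and 0.979 to 1.71 (median 1.36) with APAP. The ratio of *Nr1i3* to *Nr1i2* was 3.47 to 6.79 (median 4.67) with vehicle and 1.59 to 4.93 (median 2.96) with APAP. The treatments overlapped in both of these. The ratio of *Por* to *Cyb5a* spanned 0.194 to 0.430 with vehicle and 0.137 to 0.317 with APAP.

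**Figure D4:**
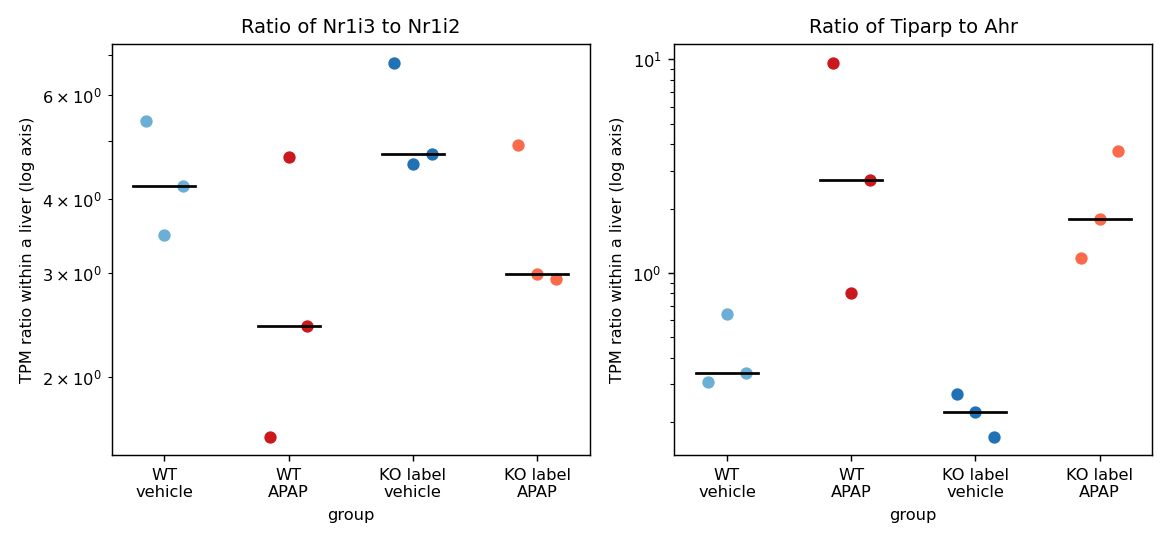
Ratio of TPM between 2 members within each liver (log axes), by group, points being livers and lines medians of 3. The ratio of *Tiparp* to *Ahr* is at most 0.642 in vehicle livers and at least 0.806 in APAP livers, while the ratio of *Nr1i3* to *Nr1i2* overlaps between treatments.

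For the 3 members that passed, the genes with the most similar profile were found among 10903 expressed genes, by the root-mean-square difference of log2 CPM over 12 livers after each gene's mean was subtracted. The nearest to *Nr1i3* were *A730017L22Rik*, *Tef*, *1600014C10Rik*, *Dhdh* and *Lrp4*, with differences of 0.13 to 0.15, where *Nr1i3* itself varied by 0.63. *Tef*, a transcription factor of the PAR bZIP family, differed by 0.13 and had a log2 fold change of -1.05 with APAP. The nearest to *Tiparp* were *Sat1*, *H3f3b*, *Gm6485*, *Slc16a6* and *Thbd*, with differences of 0.27 to 0.37, where *Tiparp* varied by 1.34. *Sat1*, which acetylates polyamines, had a log2 fold change of 2.31, and *Gm6485* is a predicted gene whose reads may be shared with similar genes. Among the nearest to *Ahr* were *Cpne3*, *Cyp1a2*, *Slc31a1* and *Lhpp*, with differences of 0.17 to 0.23, where *Ahr* varied by 0.50. *Cyp1a2*, a P450 gene known as an AHR target, differed from *Ahr* by 0.18.

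The known targets of the receptors were described by counts, since their lists were chosen with earlier results in view. Of 7 tested AHR targets, 2 were higher and 2 lower after APAP over all livers, and their median log2 fold change was -0.06. *Nqo1*, a quinone reductase, rose from 4.59 ± 1.10 to 11.0 ± 1.81 CPM (SD, n = 6, log2 fold change 1.28, adjusted p = 0.000192), and *Slc7a5*, an amino acid transporter, rose from 1.96 ± 0.55 to 7.06 ± 1.81 CPM (log2 fold change 1.85). *Cyp1a2* fell from 266 ± 54.6 to 143 ± 49.7 CPM (log2 fold change -0.90, adjusted p = 0.00785), and *Ugt1a6a*, a glucuronosyltransferase that shares exons with its neighbours, had a log2 fold change of -0.57. *Cyp1a1*, another AHR target of the list, was not called, with 0.650 to 1.60 CPM in vehicle livers and 0.664 to 1.61 CPM in APAP livers. AHR targets thus moved both ways while *Ahr* itself fell and *Tiparp* rose.

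Of 12 tested CAR targets, 2 were higher and 4 lower after APAP, with a median of -0.37. *Gadd45b*, a stress gene known to be induced through CAR, rose from 2.18 ± 0.60 to 18.5 ± 4.74 CPM (log2 fold change 3.09, adjusted p = 3.2e-06). *Cyp2c54* (-0.80), *Cyp2c37* (-1.09) and *Ugt1a1* (-0.73), which encode 2 P450 enzymes and the bilirubin-conjugating transferase, fell, though reads may be shared among *Cyp2c* paralogs and *Ugt1a* exons. The classic CAR target *Cyp2b10* stood at 0 to 3.17 CPM with vehicle and 1.37 to 5.87 CPM with APAP. Of 13 PXR targets, 0 were higher and 3 lower, and 12 of the 13 estimates lay below 0. Their median was -0.31, against 0.01 over all genes tested. Reads may be shared among the *Cyp3a* paralogs of this list, so these estimates need not be independent. *Cyp3a16* lay near 1 CPM (0.705 to 1.33 with vehicle, 0.441 to 1.61 with APAP). *Cyp2a5* fell from 737 ± 170 to 157 ± 153 CPM (log2 fold change -2.22, adjusted p = 0.0188), *Slco1a4*, an organic anion uptake carrier, from 85.9 ± 15.7 to 40.6 ± 13.7 CPM (-1.08), and *Cyp3a44* from 17.5 ± 2.18 to 13.2 ± 1.88 CPM (-0.40). *Cyp3a11*, the main PXR-inducible P450 gene of mouse liver, stood at 2272 ± 277 CPM and 1770 ± 302 CPM (-0.36, adjusted p = 0.0805). Without both livers that stood apart, 6 PXR targets passed as lower. Calls over all genes rose as well, from 4187 to 5627, the lower ones from 1880 to 2517.

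Of 14 glucocorticoid receptor targets, 3 were higher and 4 lower, with a median of -0.02. *Dusp1*, a phosphatase of MAP kinases, had a log2 fold change of 3.43 and the kinase gene *Sgk1* of 1.30. *Serpina6*, which encodes corticosteroid-binding globulin, had one of -1.85 and *Pck1*, a gene of gluconeogenesis, of -1.31. Known targets thus split in direction while *Nr3c1* showed no call.

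**Figure D5:**
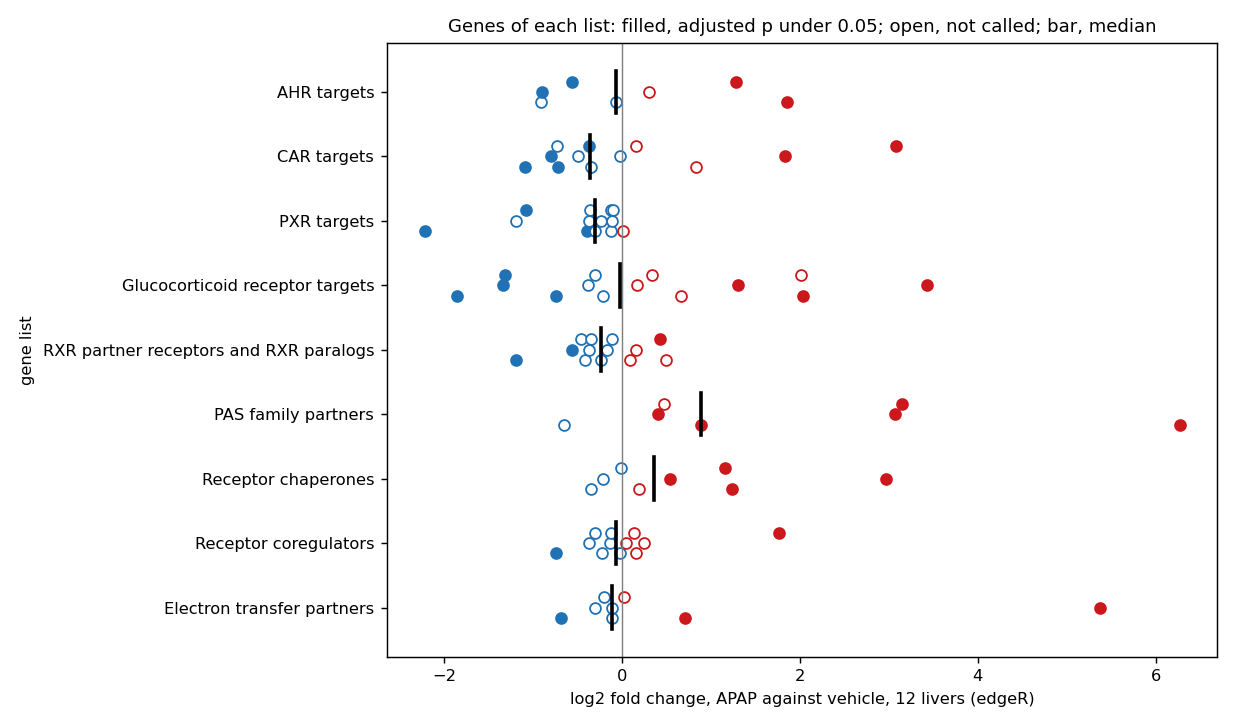
Log2 fold change of APAP against vehicle over 12 livers (edgeR, horizontal axis) for the tested genes of each list, filled where the adjusted p-value was under 0.05, with black bars at list medians. PXR targets lie almost all below 0 (12 of 13), while chaperones have a median of 0.36, and the 2 PAS family genes *Arnt2* and *Npas2* were at or near 0 counts in vehicle livers.

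The proteins that work beside the receptors were described in the same way. Of 13 tested partner receptors and paralogs of RXR, 1 was higher and 2 lower. *Ppara*, the receptor for fatty acids, fell from 380 ± 60.0 to 166 ± 35.6 CPM (log2 fold change -1.20, adjusted p = 0.000396), and *Rara* fell (-0.57) and *Ppard* rose (0.43). Of 7 PAS family partners, relatives of AHR and ARNT, 5 were higher and 0 lower, and without *Arnt2* and *Npas2*, which passed the filter on low counts only through the APAP livers, 3 of 5 were higher with a median of 0.47. *Arntl*, a clock gene, rose from 2.60 ± 2.07 to 20.3 ± 6.85 CPM (log2 fold change 3.07), *Hif1a*, the hypoxia factor, from 26.1 ± 2.60 to 48.6 ± 11.3 CPM (0.89), and *Clock* had a log2 fold change of 0.40 (adjusted p = 0.0422). *Npas2* (0 to 9 counts with vehicle, 11 to 73 with APAP) and *Arnt2* (0 counts in all vehicle livers, 0 to 24 with APAP) passed the test at low counts, and *Arnt2* was chosen after its values were seen.

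Of 8 receptor chaperones, 4 were higher and 0 lower. *Hsp90aa1*, which holds AHR and the glucocorticoid receptor in the cytosol, rose from 158 ± 57.4 to 1240 ± 490 CPM (log2 fold change 2.97), and *Hspa8* (1.23), *Hsp90ab1* (1.16) and the co-chaperone gene *Ptges3* (0.53) rose as well. Of 12 coregulators, 1 was higher and 1 lower: *Nrip1*, a corepressor, had a log2 fold change of 1.77 and *Nr0b2*, the small heterodimer partner, of -0.75. Of 8 electron transfer partners of P450 enzymes and reductases, 2 were higher and 1 lower. *Hmox1*, the heme oxygenase that takes its electrons from the POR protein, rose from 18.8 ± 14.7 to 738 ± 268 CPM (log2 fold change 5.37), *Cyb5r1* had 0.71 and the ferredoxin reductase gene *Fdxr* -0.69. Within WT livers 6 of the 92 list genes tested passed (6.52%, where 2.05% of all genes passed), 1 higher gene each among AHR, CAR and glucocorticoid receptor targets, chaperones, coregulators and electron transfer partners, and 0 lower. Under the KO label 30 of 93 passed (32.3%, against 22.6% of all genes), and over all livers 37 of 94 (39.4%, against 25.4%). The 30 include *Npas2*, and the 37 include *Arnt2* and *Npas2*, which the filter on low counts kept only through APAP livers. The lists were chosen with earlier results in view, so these shares do not measure an excess over all genes. Under the KO label, 2 AHR targets were higher and 2 lower, 2 CAR targets were higher, 1 PXR target was lower, and 5 glucocorticoid receptor targets were higher and 3 lower. Of the partners, 4 chaperones, 3 PAS family partners (2 without *Npas2*) and 2 electron transfer partners were higher, 1 partner receptor was higher and 2 lower, and 2 coregulators were higher and 1 lower. Without both livers that stood apart, the pooled counts rose to 5 higher glucocorticoid receptor targets, 2 higher partner receptors and 3 higher coregulators. Higher calls over all genes rose in that fit from 2307 to 3110. Between the labels after APAP, 0 of the 94 list genes tested passed in edgeR (3 at an unadjusted p-value under 0.05, against 536 of 16174 genes). In the interaction 0 of 94 passed (6 unadjusted, against 848 of 16509 genes). Of the genes with the smallest unadjusted p-values between the labels after APAP, *Cyp2b10* had a log2 fold change of -1.06. *Crebbp*, a coactivator gene, had one of 0.48 and *Cyp2b9*, a relative of *Cyp2b10*, of 2.03. All 3 had an adjusted p of 0.958. *Cyp2b9* was at 0 to 2.25 CPM with vehicle and 0.159 to 1.93 CPM with APAP, and reads may be shared among *Cyp2b* paralogs.

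Markers of other cell types that moved with APAP in all livers were 2 of 4 cholangiocyte markers and 2 of 5 sinusoidal endothelial markers, which were higher, and 1 of 5 stellate cell markers, which was lower. The 4 cholangiocyte markers summed to 2.54 to 7.71 CPM in vehicle livers and 18.0 to 40.2 CPM in APAP livers. Their log2 fold changes ran from 0.32 to 3.20 with a median of 0.64, so the sum does not show a like rise of all 4. Of 4 tested neutrophil markers 0 were called in edgeR with all livers (4 at an unadjusted p-value under 0.05, where 6132 of 16509 genes passed). Once both livers that stood apart were left out, 3 were higher, and higher calls over all genes rose from 2307 to 3110. Of the 4 markers, *S100a8* and *Retnlg* fell below the filter on low counts between the labels with vehicle, and *Retnlg* also under the KO label. Both genes were kept only with APAP livers in the fit. Of 5 Kupffer cell, 5 erythroid and 5 lymphocyte markers, 0 were called in edgeR with all livers and 0 passed unadjusted. Median log2 fold changes differed in sign between WT livers and the KO label: erythroid 4.43 and -0.50, lymphocyte 1.82 and -1.42, Kupffer cell 0.31 and -0.43. Of these, 1 lymphocyte marker was called, lower under the KO label. Between the labels after APAP, 4 of 4 neutrophil and 5 of 5 erythroid markers passed unadjusted, where 536 of 16174 genes did. All of these markers were lower under the KO label, and 0 were called. Among WT APAP livers only replicate 1 had a high erythroid sum. The part of these cells in the values of *Tiparp*, *Ahr* and *Nr1i3* was not tested.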

How the data were processed

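The authors deposited a table of 45777 genes with 3 measures for each of the 12 livers. The deposited read counts are raw, whole and unscaled, and all tests used them. The TPM values deposited by the authors, scaled by transcript length and library, served for levels between genes, and the deposited FPKM values were not used. The libraries came from a stranded poly-A kit per the labels. The submitters' processing notes name FastQC 0.11.7, Trimmomatic 0.38, HISAT2 2.1.0, Bowtie2 2.3.4.1 and StringTie 2.1.3b and the mm10 (GRCm38) build, and the use of strand in counting is not given in the sources used here.

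Counts were scaled by TMM and tested in both directions with edgeR 4.0.16 (glmQLFit, glmQLFTest, filterByExpr) in R 4.3.3, on all genes, p-values being adjusted by Benjamini-Hochberg over every gene tested, at 0.05. Pooled treatment used 12 livers with genotype label as a term, each other comparison of 2 groups its 6 livers, and the interaction 12. Alternatives were DESeq2 1.42.0, its size factors in edgeR, no filter, a minimum of 10 counts, a block for the replicate number, all livers fitted at once, limma 3.58.1 on log2(TPM + 1) and log2(TPM + 0.1) after quantile normalization, and leaving out each liver in turn. The fit was tested on simulated data with known changes. Replicates were separate livers per the labels.

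The members, the gene lists and the promoter motifs were chosen with earlier results of these data known, and so were the tests. All members were named in the text, and *Cyp1a1* was named outside the rule that follows, after its values were seen. From each list, at most 4 genes with the smallest unadjusted p in the pooled comparison were named and at most 2 with the smallest between the labels after APAP, and *Arnt2* beside them, and 5 genes nearest in profile for each of 3 members, among genes with a mean log2 CPM of at least 1 (1 of these genes is not reported here). Coordinates are those of RefSeq on GRCm38.p6. Counts are limited by sampling at 49737950 to 69566079 per liver, and *Ahrr* (at most 26 counts) was the only member near this limit.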

Additional observations from a re-analysis of the deposited data

How the results depend on the processing

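With both labels pooled, *Nr1i3*, *Ahr* and *Tiparp* kept their direction and their calls in all 9 alternative fits and in all 12 fits that left out 1 liver, and the same held under the KO label in 8 alternative fits and 6 that left out 1 liver. In WT livers the number of members called was 0, and it was 3 with DESeq2, 2 with all 12 livers in one fit and 2 with both livers that stood apart left out, a choice made after seeing the data. Pooled, *Nr1i2* passed with limma on log2(TPM + 1) (adjusted p = 0.0300) and log2(TPM + 0.1) (adjusted p = 0.0391). The direction turned for values that were not called. Pooled *Arnt* was 0.079 without both livers that stood apart and ran from -0.21 to 0.029 with 1 liver left out, and pooled *Cyb5a* ran from -0.24 to 0.086. With 1 liver left out, *Por* under the KO label ran from -0.23 to 0.025, *Tiparp* between the labels after APAP from -1.40 to 0.11, and the interaction of *Nr1i3* from -0.14 to 0.21. The interaction of *Tiparp* was 0.046 with limma on log2(TPM + 0.1), 0.15 without both livers that stood apart, and -0.92 to 0.93 with 1 liver left out. The cause was not tested in any of these.

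Over all genes, 322 passed in WT livers, against 62 with the replicate block, 631 without both livers that stood apart, 1413 with DESeq2 and 1523 with all 12 livers in one fit, and 3538 passed under the KO label, against 2249 in the fit of all 12. With 1 liver left out these counts ran from 41 to 442 in WT livers and from 1995 (without KO vehicle replicate 2, 2071 without KO APAP replicate 3) to 3368 under the KO label, from 3225 to 4811 over all livers, from 0 to 16 between the labels with vehicle, from 1 to 7 with APAP and from 0 to 2 in the interaction. DESeq2 called 137 genes between the labels with vehicle, 29 with APAP and 9 in the interaction, where edgeR called 4, 5 and 0, and with APAP a minimum of 10 counts in every liver left 1. Over all livers 4187 genes passed, against 5627 without both livers that stood apart. Of the pooled calls 55.1% were higher with edgeR and 44.3% with limma on log2(TPM + 1). The replicate numbers are not stated to pair livers. The deviations of same-numbered livers correlated at -0.26 to 0.11, over 0.1 in 1 of 18 pairs, and with the replicate block 3 members passed over all livers, 0 in WT livers and 3 under the KO label. Depth limits *Ahrr*, which had at most 26 counts in a liver.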
